A study of Mus musculus with 12 samples.

Results

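The complement system is a set of plasma and cell-surface proteins that tags material for removal and, at its end, perforates membranes. In the classical pathway, C1q binds a target, proteases attached to it cut C4 and C2, and the products of both form the enzyme that cuts C3, the component on which all pathways meet, while factor B (Cfb) serves the same step in the alternative pathway. In the retina, microglia are the best known source of C1q, and complement is studied there for the tagging of synapses and of dying photoreceptors. Here 9 complement genes were followed, C1qa, C1qb and C1qc (the chains of C1q), C2, C4b, C3, Cfb, Serping1 (the C1 inhibitor) and C3ar1 (the receptor of the C3a fragment). They were chosen by symbol from the 32867 genes of the table, and all 9 had a row.

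The RNA sequenced came from whole retinas. The donors were Pde6b rd1 mice on postnatal day (PN) 13, Pde6b rd10 mice at PN23, Prph rd2 mice at PN29 and wild-type C3H animals. Each of the 4 groups had 3 samples. The Pde6b rd1 and Pde6b rd10 mice carry mutations of Pde6b, a catalytic subunit of the rod phosphodiesterase, and Prph rd2 mice carry a mutation of Prph2, a protein of the photoreceptor outer segment. The days were chosen at the height of photoreceptor death in each model, and the C3H samples are labelled PN13, PN23 and PN29, 1 sample each. According to the methods of the study, Pde6b rd10 mice had a C57Bl6/J background and the other groups a C3H background, while the label of the Prph rd2 samples names C57BL6/J. Mutation, strain and labelled day therefore cannot be told apart in Pde6b rd10, nor, if the label holds, in Prph rd2. Pde6b rd1 also differs from C3H in labelled day, except for the C3H sample of PN13.

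The authors deposited the reads that they counted per gene and the FPKM values made from them. A library had 17049495 to 24755890 reads on genes, and 3 counts, taken as the floor, correspond to 0.121 to 0.176 CPM (counts scaled by library size). The biological coefficient of variation among the samples of a group was lowest in C3H at 3.12%, near that in Pde6b rd1 at 3.35%, and higher for Pde6b rd10 (5.04%) and for Prph rd2 (7.51%). The 3 C3H samples, labelled with 3 different days, were thus spread no wider than the groups of 1 day, although every pair of samples within a group differed by more than the sampling noise (chi-square per degree of freedom between 1.72 and 10.9). Xist lay at 0.386 to 0.517 CPM in C3H, and the 4 Y-linked marker genes had 0 counts in all 3 Pde6b rd1 samples, while every sample of Pde6b rd10 and Prph rd2 had both Xist (715 to 1980 CPM) and all 4 Y-linked genes. C3H samples thus held male RNA and Pde6b rd1 samples female RNA, and each Pde6b rd10 and Prph rd2 sample held RNA of both sexes. Sex and mutation cannot be told apart in Pde6b rd1, and the part of sex in the results was not tested. The gene mutated in each model was lower than in C3H, with a log2 fold change of -2.16 for Pde6b in Pde6b rd1, -0.57 for Pde6b in Pde6b rd10 (under 1.5-fold) and -1.06 for Prph2 in Prph rd2.

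In C3H retina, the chains of C1q had the highest levels of the 9 genes. Per gene length, C1qa led with 8.48 ± 0.53 FPKM (SD, n = 3), followed by C1qb with 4.62 ± 0.14 and C1qc with 2.78 ± 0.62 FPKM. Serping1 had 0.931 ± 0.037, C3ar1 0.360 ± 0.015, C3 0.305 ± 0.034, C2 0.186 ± 0.042 and C4b 0.107 ± 0.034 FPKM, and Cfb had 0 counts in every C3H sample. In this order the samples of neighbouring genes overlapped only between C2 and C4b. The same order held in Pde6b rd1, where C1qa had 8.96 ± 0.37, C1qb 5.17 ± 0.44 and C1qc 3.32 ± 0.50 FPKM. In Prph rd2, C4b with 0.871 ± 0.047 FPKM came next after the C1q chains, overlapping with Serping1 at 0.816 ± 0.237 FPKM.

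In Pde6b rd10 the order was another one. C1qb (30.6 ± 4.2 FPKM), C4b (27.2 ± 0.9 FPKM) and C1qa (26.9 ± 1.1 FPKM) overlapped at the top, and Serping1 followed with 20.4 ± 0.4 FPKM, above C1qc with 14.1 ± 1.8 and C3 with 10.4 ± 0.4 FPKM. The group means of the 9 genes added up to 134 FPKM for Pde6b rd10, while C3H reached 17.8, Pde6b rd1 19.6 and Prph rd2 only 15.2. C4b, the last detected gene in C3H, was thus among the highest in Pde6b rd10.

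**Figure D1:**
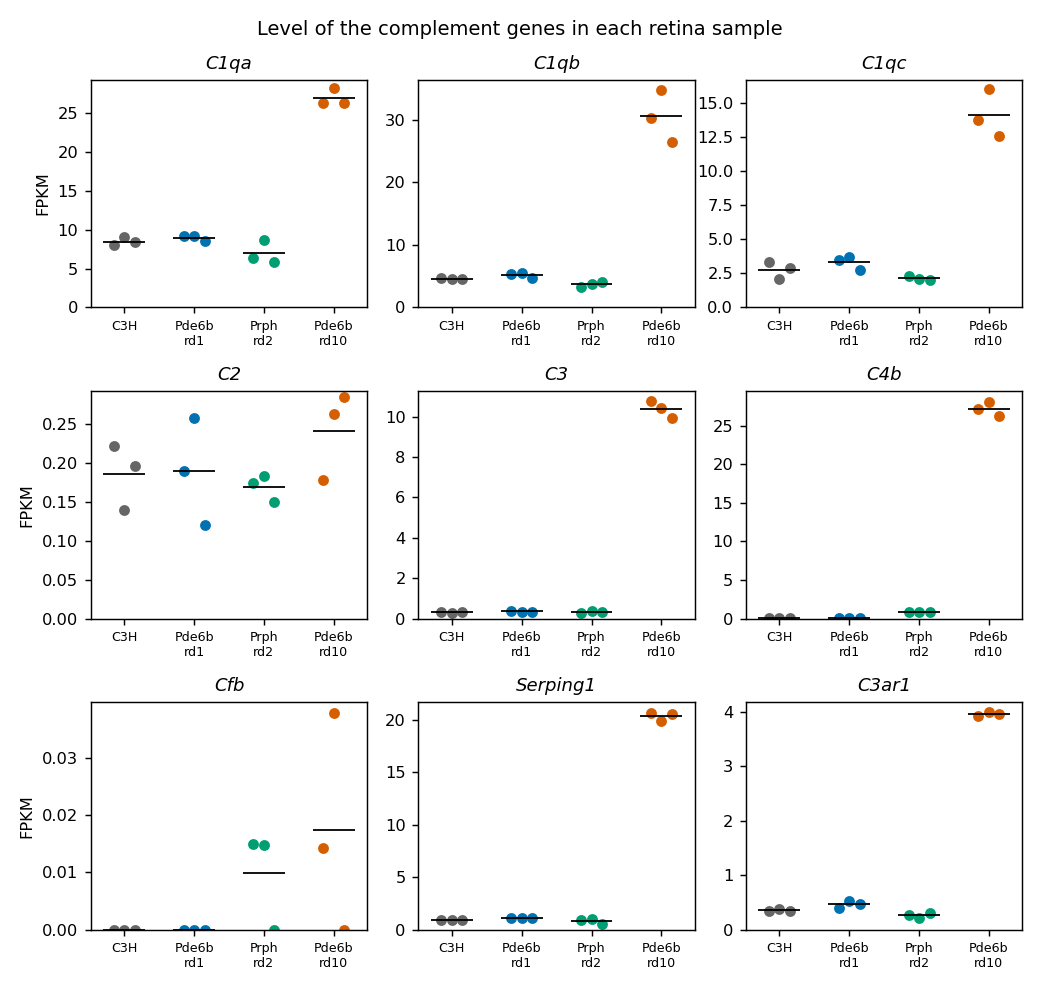
Level of each of the 9 complement genes in FPKM (vertical axis, from 0, with its own scale in each panel) in the 3 samples of each group (points) with the group mean (line). In 7 panels the 3 Pde6b rd10 samples lie above all others, in the C4b panel the Prph rd2 samples (0.826 to 0.920 FPKM) also lie above C3H, and the C2 and Cfb panels show overlapping groups at low levels. The share of all genes without overlap was not computed.

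The first comparison asked how the complement genes of Pde6b rd10 retina at PN23 differ from those of C3H. Of the 9 genes, 8 passed the filter on low counts, and 7 of these were higher in Pde6b rd10, where "higher" means that edgeR's quasi-likelihood test gave p under 0.05 before adjustment with at least a 1.5-fold difference. Changes are given as log2 fold changes with their standard error (SE) and the adjusted p. Among all 18704 genes tested, 15.9% were called higher and 8.08% lower. The median log2 fold change of the 8 genes was 3.03, against -0.0025 for all genes tested. The groups did not overlap for any of the 7, which adds little, since the 7 were called on the same values and the share of all genes without overlap was not computed.

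The chains of C1q, which assemble in equal numbers into the recognition molecule of the classical pathway, rose between 3.04-fold (C1qa) and 6.36-fold (C1qb). C1qa had 7.99, 9.04 and 8.40 FPKM in the C3H samples and 26.2, 28.2 and 26.3 in those of Pde6b rd10 (log2 fold change 1.60, SE 0.08, adjusted p = 6.52e-13). C1qb had 4.77, 4.59 and 4.50 FPKM in C3H and 30.3, 34.9 and 26.5 in Pde6b rd10 (log2 fold change 2.67, SE 0.11, adjusted p = 1.51e-14). C1qc had 3.34, 2.11 and 2.90 FPKM in C3H and 13.8, 16.0 and 12.6 in Pde6b rd10 (log2 fold change 2.30, SE 0.12, adjusted p = 1.93e-12). The 3 genes lie side by side on the minus strand of chromosome 4 of GRCm38, C1qb from 136880129 to 136886187, C1qc from 136889804 to 136893065 and C1qa from 136895917 to 136898803.

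C4b and C3 showed the largest differences of the 9 genes. C4 is cut by the proteases bound to C1q and attaches to the target, and 12, 10 and 16 reads were counted on C4b (chromosome 17, 34728380 to 34743882) in C3H, against 3830, 2999 and 2997 in Pde6b rd10. The log2 fold change was 7.95 (SE 0.10, adjusted p = 1.41e-22), or 248-fold. On C3 (chromosome 17, 57203970 to 57228136), 32, 33 and 34 reads were counted in C3H and 1369, 1003 and 1024 in Pde6b rd10 (log2 fold change 5.04, SE 0.10, adjusted p = 1.25e-19). Both genes had few reads in every C3H sample and between 1003 and 3830 in every Pde6b rd10 sample. With DESeq2, another fit on counts, the SE was larger, at 0.24 for C4b and 0.16 for C3.

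Serping1 (chromosome 2, 84765387 to 84775444) encodes the inhibitor that removes the C1r and C1s proteases from C1q. Its counts were 41, 53 and 44 in C3H and 1191, 866 and 958 in Pde6b rd10 (log2 fold change 4.39, SE 0.09, adjusted p = 2.71e-19). C3ar1 (chromosome 6, 122847138 to 122856161), a receptor of myeloid cells, had 30, 39 and 30 counts in C3H and 419, 322 and 341 in Pde6b rd10 (log2 fold change 3.40, SE 0.12, adjusted p = 2.2e-15). The inhibitor and the receptor thus rose along with the components.

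C2 and Cfb, the homologous proteases of the classical and the alternative pathway, were the exceptions. C2 had 17, 13 and 15 counts in C3H and 17, 19 and 22 in Pde6b rd10, groups that overlapped once set against depth (log2 fold change 0.32, SE 0.32, adjusted p = 0.421). Cfb had between 0 and 2 counts in each of the 12 samples and was not tested, so that a difference was not detectable at this depth. Both are neighbours on the minus strand of chromosome 17 (C2 from 34862604 to 34898265, Cfb from 34856374 to 34862518), and the annotation places a read-through gene, Gm20547, over 42.8% of the exonic bases of C2 and 79.5% of those of Cfb on the same strand. Gm20547 had no row among the deposited counts, and whether the counting took it into account is not known. If it did, reads on shared bases may not have been counted for C2 or Cfb, and both values are uncertain for that reason.

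**Figure D2:**
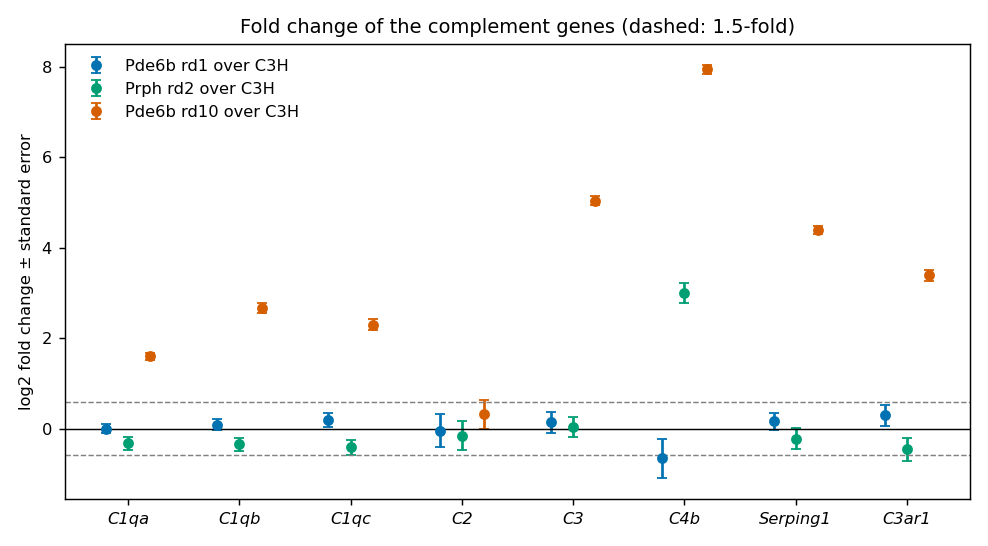
Log2 fold change (vertical axis) of the 8 tested complement genes in Pde6b rd1 (blue), Prph rd2 (green) and Pde6b rd10 (orange) over C3H, with the standard error as bars and 1.5-fold as dashed lines. For C4b, C3 and Serping1 in Pde6b rd10, these bars from edgeR are shorter than the standard errors of DESeq2. The Pde6b rd10 values run from 0.32 for C2 to 7.95 for C4b, and outside Pde6b rd10 only C4b in Prph rd2, at 3.01, was called.

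The RefSeq tables (GRCm38.p6) held a promoter window for 4 of the 9 genes, C1qb, C1qc, C3 and C3ar1, all of which rose together in Pde6b rd10. The 250 bases before their start sites follow for that reason, all from the minus strand and written 5′ to 3′, with capitals marking a match to a searched motif.
C1qb, chr4:136886201-136886450: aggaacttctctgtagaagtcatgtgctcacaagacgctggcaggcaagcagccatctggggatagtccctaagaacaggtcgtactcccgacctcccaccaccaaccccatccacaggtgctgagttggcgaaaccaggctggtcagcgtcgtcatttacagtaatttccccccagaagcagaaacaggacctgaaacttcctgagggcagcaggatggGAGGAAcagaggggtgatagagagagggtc
C1qc, chr4:136892915-136893164: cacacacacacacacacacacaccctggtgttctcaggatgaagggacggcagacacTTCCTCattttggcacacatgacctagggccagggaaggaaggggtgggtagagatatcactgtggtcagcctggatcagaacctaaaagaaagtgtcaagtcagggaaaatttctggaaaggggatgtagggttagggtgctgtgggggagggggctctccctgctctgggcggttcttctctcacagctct
C3, chr17:57228137-57228386: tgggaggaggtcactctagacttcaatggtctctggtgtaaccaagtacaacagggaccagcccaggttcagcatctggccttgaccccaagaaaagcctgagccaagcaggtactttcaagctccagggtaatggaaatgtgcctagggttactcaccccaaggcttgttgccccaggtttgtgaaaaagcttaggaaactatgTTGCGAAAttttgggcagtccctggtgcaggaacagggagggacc
C3ar1, chr6:122856158-122856407: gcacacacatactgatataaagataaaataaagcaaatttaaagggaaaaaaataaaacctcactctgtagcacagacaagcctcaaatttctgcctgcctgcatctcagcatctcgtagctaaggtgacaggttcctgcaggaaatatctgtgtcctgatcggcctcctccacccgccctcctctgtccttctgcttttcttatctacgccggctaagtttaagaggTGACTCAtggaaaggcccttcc

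Of 6 motifs searched on both strands, each window held 1 match. The start sites are those of RefSeq. The windows of C1qc and C3ar1 reach into the genes as placed above (up to 136893065 and 122856161), C1qc by far the more. Distances for them hold for the RefSeq starts only. The core of PU.1, the myeloid transcription factor (GAGGAA), stood 30 to 25 bases before the start of C1qb and, on the opposite strand, 193 to 188 bases before that of C1qc, and 23.3% of all 32851 promoter windows held it. The C/EBP motif (TTGCNNAA) stood 45 to 38 bases before the start of C3, with a match in 9.56% of all windows, and the AP-1 motif (TGANTCA) 22 to 16 bases before that of C3ar1, with a match in 6.75%. The STAT motif (TTCNNNGAA, 7.02% of all windows), the interferon motif (GAAANNGAA, 7.13%) and the NF-kB motif (GGGANTTTC, 0.941%) had no match in the 4 windows. No matches overlapped, and a match of letters is a description only.

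Microglia markers rose in Pde6b rd10 too, and in bulk retina fewer or more cells of a type cannot be told apart from less or more RNA per cell. Of 8 microglia markers, 7 were called higher in Pde6b rd10, and their summed level was 186.9 to 197.0 CPM against 84.0 to 86.1 in C3H. The exception was P2ry12, a marker of resting microglia, with 5.32 to 7.12 CPM in Pde6b rd10 and 7.72 to 8.28 in C3H. Infiltrating leukocyte markers summed to 7.56 to 9.58 CPM in Pde6b rd10 and 0.569 to 0.944 in C3H, mostly through Ccr2, a receptor of monocytes, at 5.48 to 6.95 CPM. In C3H, S100a9 and Cd3e of that list had 0 counts in all samples, and Ccr2, with 0, 0 and 1 counts there, passed the filter through its 169, 103 and 140 counts in Pde6b rd10. Ly6c2, the only other gene of the list tested, had 5, 18 and 9 counts in C3H and 19, 14 and 24 in Pde6b rd10. Markers of Mueller glia, the radial glia of the retina, summed to 3197 to 3352 CPM in Pde6b rd10 and 3412 to 3537 in C3H, with Apoe called higher and Slc1a3 lower among 6. The part of all these cells in the complement values was not tested.

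Set against the geometric mean of the 8 microglia markers (3.70 to 4.98 CPM in C3H and 12.2 to 12.7 in Pde6b rd10), the complement genes fell into different ranges. The ratio of C1qa to the markers was 1.71 to 2.62 in C3H and 2.18 to 2.30 in Pde6b rd10. Both groups overlapped through 1 C3H sample (2.62), the one labelled PN23, the day of Pde6b rd10, which lay above all Pde6b rd10 samples. In that sample the marker Aif1 had 3 counts and the markers their lowest mean. The other C3H samples, at 1.71 and 1.93, are labelled with other days and lay below Pde6b rd10. For C1qb the ratio went from 1.07 to 1.39 in C3H to 2.34 to 2.98 in Pde6b rd10, and for C1qc from 1.14 to 1.33 to 1.97 to 2.43. The ratio of C3ar1 was 0.312 to 0.452 in C3H and 1.35 to 1.38 in Pde6b rd10. For Serping1 it was 0.426 to 0.615 and 3.63 to 3.89, for C3 0.332 to 0.383 and 4.16 to 4.43, and for C4b 0.116 to 0.178 and 12.2 to 12.6. The ratio of C2 was lower in Pde6b rd10, at 0.055 to 0.089, than in C3H, at 0.151 to 0.177. Relative to the markers, the groups thus lay farthest apart for C4b, C3 and Serping1. These ratios are descriptions without a test.

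Relative to C1qb, C1qa was lower in all 3 Pde6b rd10 samples than elsewhere. The FPKM ratio of C1qa to C1qb was 1.68, 1.97 and 1.87 for C3H. Pde6b rd1 samples had ratios of 1.71, 1.67 and 1.82, those of Prph rd2 1.91, 2.34 and 1.41. In Pde6b rd10 it was 0.864, 0.808 and 0.994, below every other sample. The log2 ratio was lower in Pde6b rd10 than in C3H by a difference of -1.05 (SE 0.11, n = 3 per group), with a two-sided exact permutation p of 0.10, the smallest that 3 against 3 samples allow. That p follows from the lack of overlap and adds nothing to it. The ratio of C1qc to C1qb, not tested, was 0.45 to 0.47 in Pde6b rd10 and overlapped with C3H (0.46 to 0.70). It was 0.59 to 0.68 in Pde6b rd1 and 0.49 to 0.68 in Prph rd2. The sum of the 3 chains was 65.4 to 79.0 FPKM in Pde6b rd10. It was 15.7 to 16.1 FPKM for C3H, 16.0 to 18.4 for Pde6b rd1, and 11.9 to 14.4 for Prph rd2. C1qa made up 35.6 to 40.3% of it in Pde6b rd10 and 48.7 to 59.9% in the other 9 samples.

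**Figure D3:**
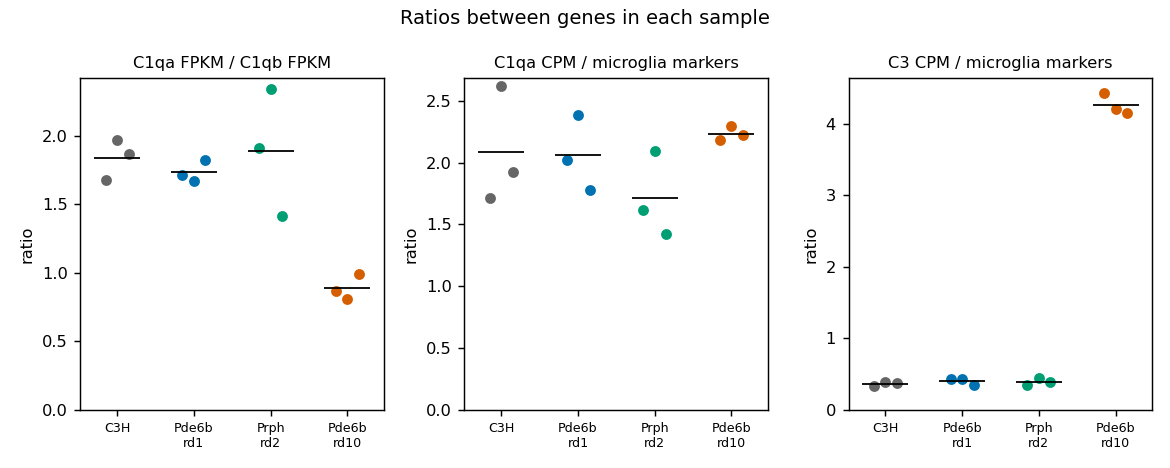
Ratio of C1qa to C1qb in FPKM (left), of C1qa CPM to the geometric mean CPM of 8 microglia markers (middle) and of C3 CPM to the same markers (right), each axis from 0, with 3 samples (points) and the mean (line) per group. The left ratio is lowest in Pde6b rd10 (0.808 to 0.994), the middle one overlaps between C3H and Pde6b rd10 through 1 C3H sample at 2.62, labelled PN23, and the right one is highest in Pde6b rd10 (4.16 to 4.43).

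The next comparison was that of Pde6b rd1 at PN13 with C3H. None of the 8 tested genes was called by edgeR's quasi-likelihood test, 0 had an unadjusted p under 0.05, and DESeq2 called 0 as well, while 8.98% of all genes tested were called higher and 6.03% lower. The log2 fold changes of the C1q chains were 0.00 for C1qa (SE 0.10, adjusted p = 0.984), 0.09 for C1qb (SE 0.13, adjusted p = 0.613) and 0.19 for C1qc (SE 0.15, adjusted p = 0.332). C3 had 44, 29 and 33 counts against 32, 33 and 34 in C3H (log2 fold change 0.15, SE 0.23). C4b had 5, 10 and 8 counts, against 12, 10 and 16 in C3H (log2 fold change -0.66, SE 0.44, adjusted p = 0.24). Serping1 had 1.07 to 1.14 FPKM against 0.888 to 0.955 in C3H, and C3ar1 0.404 to 0.531 against 0.351 to 0.377 FPKM. Their log2 fold changes were 0.17 and 0.29, with adjusted p of 0.507 and 0.318 from edgeR. In CPM, which unlike FPKM is scaled between samples by TMM, the gaps were smaller. The lowest Pde6b rd1 and the highest C3H values were 2.42 and 2.31 CPM for Serping1 and 1.674 and 1.673 CPM for C3ar1. How many of all genes lie apart in this way was not computed.

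The summed level of the microglia markers was 72.9 to 83.9 CPM in Pde6b rd1, against 84.0 to 86.1 in C3H, and that of the leukocyte markers 0.451 to 0.605 against 0.569 to 0.944, with Ccr2 at 0 counts in all 3 Pde6b rd1 samples. Of 7 tested microglia markers, Trem2 alone was called, and it was higher. The rod markers of the same samples summed to 11940 to 12040 CPM, against 25170 to 26200 in C3H. For C4b, the 5 to 16 counts per sample leave a wide error.

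In Prph rd2 at PN29, 1 of the 8 tested genes was called against C3H, where 2.68% of all genes tested were higher and 1.89% lower. C4b had 124, 118 and 114 counts, against 12, 10 and 16 in C3H (log2 fold change 3.01, SE 0.23, adjusted p = 7.45e-07), or 8.03-fold. The C1q chains were not called, with log2 fold changes of -0.32 for C1qa, -0.35 for C1qb and -0.41 for C1qc, unadjusted p of 0.0308, 0.0221 and 0.0271, and adjusted p of 0.158, 0.129 and 0.145 in edgeR's test. C1qb (3.34, 3.69 and 4.09 FPKM) and C3ar1 (0.265, 0.223 and 0.316 FPKM) lay below all C3H samples, and C3 (0.271 to 0.366 FPKM) and Serping1 (0.550 to 1.01 FPKM) overlapped with them. C3ar1 had a log2 fold change of -0.46 (SE 0.25, adjusted p = 0.293 from edgeR) and was not called either. The share of all genes without overlap was not computed. Microglia markers summed to 75.6 to 83.1 CPM, against 84.0 to 86.1 in C3H, and leukocyte markers to 0.941 to 1.502 CPM. Blood markers summed to 70.2 to 81.0 CPM, against 44.0 to 47.3 in C3H, with Alas2 and Hbb-bs of 3 called higher, and their part in the C4b value was not tested. The other 7 tested genes were not called.

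C4b has a near copy, C4a, on the same strand (chromosome 17, 34809092 to 34823464), which the annotation lists as a processed transcript. Of all stretches of 100 bases in a C4b transcript of 5379 bases, 16.5% also occur in a C4a transcript, and of those of 150 bases 8.26%. Some reads could thus have been counted for either gene or for none. C4a had 108, 105 and 88 counts for C3H. The Pde6b rd1 samples had 139, 92 and 142, those of Prph rd2 had 98, 121 and 93, and those of Pde6b rd10 had 62, 35 and 32. It was lower in Pde6b rd10 (log2 fold change -1.28, SE 0.18, adjusted p = 4.42e-06) and was not called in Pde6b rd1 (0.36, SE 0.14) or Prph rd2 (-0.16, SE 0.15). C4b was thus higher in Pde6b rd10 and Prph rd2, and its copy was higher in neither.

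**Figure D4:**
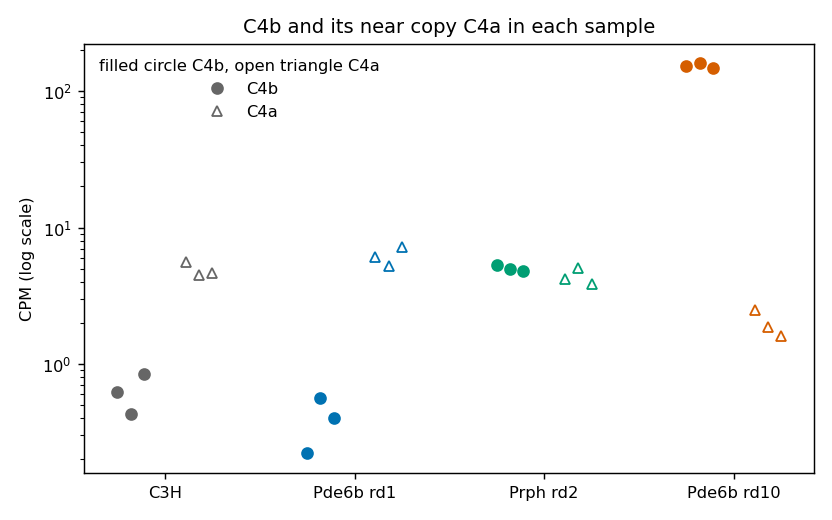
CPM of C4b (filled circles) and C4a (open triangles) on a log axis in the 3 samples of each group. C4b lies below C4a in C3H (0.429 to 0.840 against 4.50 to 5.59 CPM) and Pde6b rd1, beside it in Prph rd2 (4.76 to 5.30 CPM) and above it in Pde6b rd10 (149 to 160 against 1.59 to 2.49 CPM).

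These genes lie in a part of the genome that differs between mouse strains. C4b, C4a, C2 and Cfb lie in the major histocompatibility complex, of which C3H and C57BL/6 mice carry different haplotypes, and C4b lies 12.2 Mb from Prph2, the gene mutated in Prph rd2, with C3 10.3 Mb away from it on the other side. Within 2 Mb of C4b, a distance chosen after seeing the data, 10 of 137 tested genes were higher and 13 lower in Prph rd2 (16.8% called), against 4.42% on all other chromosomes. In Pde6b rd10, 31.2% of 144 genes in that region were called, against 24.0% on other chromosomes, and in Pde6b rd1 13.0% of 131, against 15.2%. Within 15 Mb of Prph2, a wider region that also holds C4b and C3, 12.8% of 337 genes were called in Prph rd2. In Pde6b rd10 it was 25.3% of 344 and in Pde6b rd1 13.4% of 322. The genes with fold changes nearest to those of C4b over the 3 comparisons with C3H, among 17850 genes tested in all 3, were H2-K1 and H2-D1 of the same complex. H2-K1 had log2 fold changes of 6.23 for Pde6b rd10, -0.91 for Pde6b rd1 and 2.04 for Prph rd2, with a root mean square distance of 1.15 from C4b, and H2-D1 had 6.13, -0.40 and 1.22, with a distance of 1.48. The shares of strain and of mutation in the C4b values cannot be told apart.

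By the same measure, each of the other genes had closer neighbours. Nearest to C1qc was Gja1, a gap junction protein, at a distance of 0.031, followed by Ror2, a receptor tyrosine kinase, at 0.083 and Tyrobp, an adaptor of myeloid receptors, at 0.084. Nearest to C1qb were Dock2 (0.087), Wdfy4 (0.11) and again Ror2 (0.14), and to C1qa Srp54a (0.068), 1500035N22Rik (0.071) and Ly86 (0.074). C3 had S100a6 (0.074), Fbln1 (0.19) and A2m (0.33) nearest, and Serping1 had Tgfbi (0.095), Pcolce (0.16) and A2m (0.25), with A2m, a broad protease inhibitor, common to both. C3ar1 had Hist1h4m (0.13), Tlr7 (0.17) and Fgl2 (0.19), and C2 had Prr13 (0.015). H2-K1, H2-D1 and Hist1h4m belong to families of similar genes, and their counts are uncertain. The 3 comparisons share the C3H samples, and likeness in 3 fold changes is a description.

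Between the models, the direct contrasts in a fit of all 12 samples placed Pde6b rd10 apart. Against Pde6b rd1, 7 of 8 tested genes were higher in Pde6b rd10 and 0 lower, where 17.6% of all genes tested were higher and 11.2% lower. The log2 differences were 1.63 (SE 0.10) for C1qa, 2.61 (0.11) for C1qb, 2.13 (0.13) for C1qc, 4.91 (0.10) for C3, 8.64 (0.12) for C4b, 4.25 (0.11) for Serping1 and 3.13 (0.13) for C3ar1, with adjusted p of 3.85e-11 or less from edgeR. Against Prph rd2, 7 of 8 were again higher in Pde6b rd10 and 0 lower, where 13.5% of all genes were higher and 6.16% lower. There C4b differed by 4.94 (SE 0.08) and Serping1 by 4.62 (SE 0.11) on the log2 scale. C2 was not called in either contrast (0.39, SE 0.34, and 0.47, SE 0.33).

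Pde6b rd1 and Prph rd2 differed in 2 of the 8 genes, against a background of 8.66% of all genes called higher in Pde6b rd1 and 8.21% called lower. C4b was lower in Pde6b rd1 (log2 difference -3.69, SE 0.21, adjusted p = 2.64e-11) and C3ar1 was higher (0.72, SE 0.18, adjusted p = 0.00344). C1qc stood 1.49-fold higher in Pde6b rd1 (adjusted p = 0.00714), just under the threshold of 1.5, which it passed with DESeq2 at a log2 difference of 0.59. Both groups differ in labelled day and sex as well, and in strain if the label of Prph rd2 holds.

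Among 50 other complement genes listed from general knowledge, 7 had no row in the table. In Pde6b rd10, 29 of the rest could be tested, of which 14 were higher than in C3H, 3 lower and 12 not called. The filter itself bears on this count, since 6 of the 14 (C1ra, C1s1, Cfi, Cd59b, C5ar1 and C5ar2) passed it in this comparison alone, through their reads in Pde6b rd10. Of the 23 that also passed it in another comparison with C3H, 8 were higher and 3 lower. Itgax, among the 8, passed elsewhere only in Pde6b rd1, where it was called higher too, so that this count is not free of the filter either. For Pde6b rd1, 24 were tested, with 2 called higher and 4 lower, and 1 of the former, Cr2, passed the filter in that comparison alone. For Prph rd2, edgeR called 0 of 22, with 9 at an unadjusted p under 0.05 and 1 called by DESeq2. The shares of all genes called in each comparison are those given above.

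C1ra and C1s1, like Cd59a and Cd59b, belong to pairs of similar genes among which reads may have been divided, and their counts are uncertain. Of the proteases that C1q carries, C1ra had 3, 3 and 1 counts in C3H and 96, 74 and 86 in Pde6b rd10, a ratio of 35.4 (95% exact interval 16.9 to 88.8, for counting error only). C1s1 had 0 counts in all C3H samples and 73, 59 and 85 in Pde6b rd10, which is at least 23.3-fold higher against a floor of 3 counts per sample. In Pde6b rd1, C1s1 had 6, 9 and 9 counts, at least 2.73-fold higher than the same floor, but did not pass the filter for a test. C1rl, a relative of C1r, was higher in Pde6b rd10 (35, 31 and 36 counts against 16, 22 and 13 in C3H, log2 fold change 0.95, SE 0.26) and lower in Pde6b rd1, where 2, 3 and 1 counts give a ratio of 0.12 (95% exact interval 0.042 to 0.281). Masp2, a protease of the lectin pathway, was lower in Pde6b rd10 (15, 15 and 22 counts against 57, 63 and 44), with a log2 fold change of -1.69 (SE 0.25, adjusted p = 6.81e-06). Masp1, the other listed lectin pathway protease tested, was not called (log2 fold change 0.76, SE 0.41).

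Among the regulators in the fluid phase, Cfi and Clu rose in Pde6b rd10. Cfi, the protease that inactivates C3b and C4b, had 0, 7 and 2 counts in C3H and 170, 132 and 149 in Pde6b rd10 (log2 fold change 5.54, SE 0.31). Replicate 2 of C3H held 7 of its 9 reads, and without it the log2 fold change was 6.93. Clu, or clusterin, which blocks the terminal complex, had 63.2 to 64.6 FPKM in C3H and 208 to 230 in Pde6b rd10 (log2 fold change 1.73, SE 0.04). In Pde6b rd1, Clu was lower (25.6 to 28.4 FPKM, log2 fold change -1.30, SE 0.04), as was vitronectin, Vtn (30.8 to 33.0 against 108 to 113 FPKM in C3H, -1.87, SE 0.04). Vtn was not called in Pde6b rd10 (0.19). Clu was thus higher in Pde6b rd10 and lower in Pde6b rd1. In the same Pde6b rd1 samples, the Mueller glia markers summed to 1845 to 1889 CPM, against 3412 to 3537 in C3H, with 3 of 6 called lower (Apoe, Aqp4 and Glul). Markers of pigment epithelium and choroid summed to 29.7 to 33.3 CPM, against 52.4 to 56.5, with 4 of 5 tested called lower, and the part of these cells in the Clu and Vtn values was not tested.

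Of the membrane regulators, Cd59a (log2 fold change 0.78, SE 0.13) and Cd59b (2.70, SE 0.45), inhibitors of membrane attack, were higher in Pde6b rd10. Cr2, a receptor of C3 fragments, was higher in Pde6b rd1, with 28, 19 and 19 counts against 6, 8 and 9 in C3H (log2 fold change 1.56, SE 0.36). Of the receptors, C5ar1, the receptor of C5a, had 84, 50 and 49 counts in Pde6b rd10 against 8, 6 and 3 (log2 fold change 3.34, SE 0.32), and C5ar2 had 21, 20 and 20 against 0, 0 and 1, a ratio of 59.0 (95% exact interval 10.2 to 2367) that rests on 1 read of 1 C3H sample. The subunits of complement receptors 3 and 4 were higher in Pde6b rd10 as well, Itgam by 1.67 (SE 0.25), Itgax by 2.69 (0.25) and Itgb2 by 2.70 (0.18) on the log2 scale. Itgax was also higher in Pde6b rd1 (31, 31 and 36 counts against 6, 16 and 13, log2 fold change 1.54, SE 0.32). Cd93, once described as a C1q receptor and found on endothelium, was lower in Pde6b rd10 (-0.89, SE 0.06). Colec12, a scavenger receptor of the collectin family, was higher in Pde6b rd10 (0.98, SE 0.15) and lower in Pde6b rd1 (-0.74, SE 0.18).

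**Figure D5:**
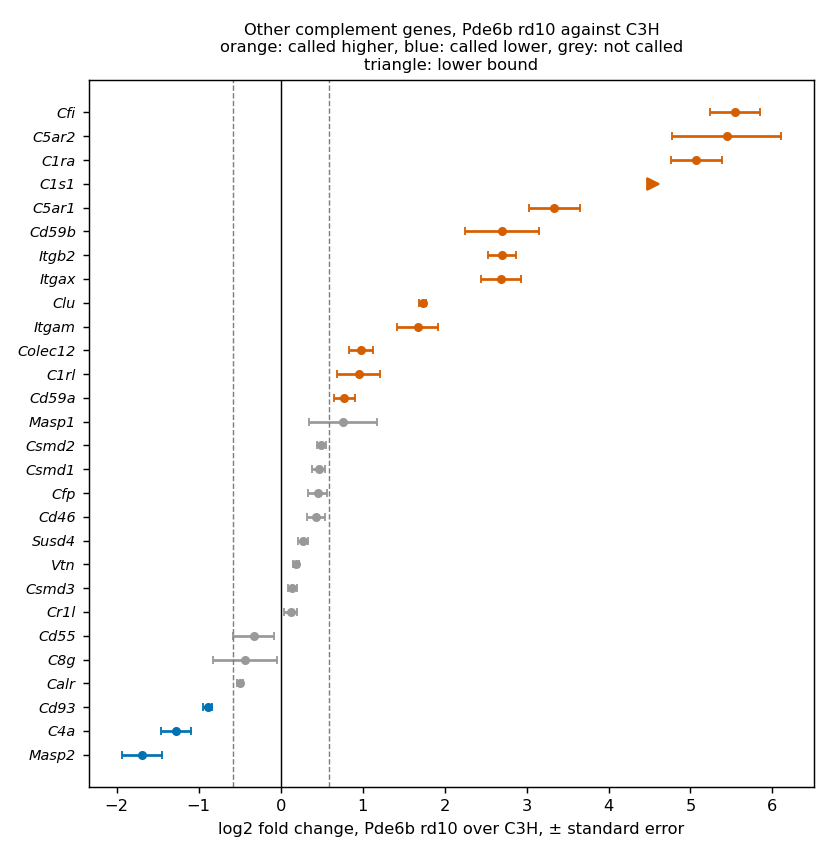
Log2 fold change of Pde6b rd10 over C3H (horizontal axis) for 28 of the tested other complement genes, with the standard error as bars and 1.5-fold as dashed lines. Of these, 13 were called higher (orange), 3 lower (blue) and 12 were not called (grey), C1s1 is drawn at its lower bound (triangle), and C5ar2 and C1ra rest on 1 and 7 reads over the C3H samples.

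The age of the C3H mice, as labelled, left no common order in the 9 genes. C1qa had 7.99, 9.04 and 8.40 FPKM at PN13, PN23 and PN29, C1qc 3.34, 2.11 and 2.90, C3 0.313, 0.267 and 0.334, and C4b 0.106, 0.0730 and 0.142 FPKM, with 1 sample per day and no test. Against the C3H sample of the same day alone, C4b had a log2 fold change of 8.46 in Pde6b rd10 and 2.57 in Prph rd2, and C3 had 5.22 in Pde6b rd10. Circular RNAs were also deposited for these samples, and 0 of the 12510 listed came from any of the 9 genes, while 5 of the other complement genes hosted 17.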

How the data were processed

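Whole-retina RNA was depleted of ribosomal RNA and sequenced from directional libraries. The authors counted reads per gene with HTSeq 0.11.2 after aligning them to GRCm38 with HISAT2, and deposited these counts, not normalized, with FPKM values, which divide them by gene length and by the reads on genes. They also deposited circRNA junction counts and TPM values (TopHat2 2.1.1), of which only the junction counts were used. The 3 samples of a model were set against those of C3H by the quasi-likelihood test of edgeR 4.0.16 under R 4.3.3, after filterByExpr and TMM scaling, and models with each other by contrasts in a fit of all 12 samples. Calls needed p under 0.05 before adjustment and a difference of at least 1.5-fold, as in the study. Adjusted p-values are Benjamini-Hochberg values over all genes tested. The standard error is the absolute log2 fold change divided by the square root of the F statistic. It can understate the error where a group has few reads. In Pde6b rd10 against C3H, DESeq2 gave standard errors of 0.24 for C4b, 0.16 for C3 and 0.15 for Serping1. Levels in CPM use TMM-scaled library sizes. Positions and overlaps came from GENCODE vM21 and promoters from RefSeq. The fit was tested on simulated counts with a common dispersion, in which genes with few reads were left unchanged. That test therefore does not show how the fit performs for such genes. Nothing in the labels says that replicates came from separate animals, so p-values measure the spread between these samples, which may be technical, and intervals and floors cover counting error only.

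The 9 genes and all lists were chosen with earlier results of these data known. Named are the 9 genes, other complement genes called against C3H, genes overlapping a member, C4a, the mutated genes and the 3 genes nearest to each member in fold change. Of the other complement genes, 1 enters the counts but is not reported here by name or drawn. The alternatives comprised RLE size factors, no filter, the adjusted p, all 12 samples in 1 fit, a replicate block, each sample left out, the C3H sample of the same day alone, DESeq2 1.42.0, and limma 3.58.1 with FPKM on a log2 scale after adding 1 or 0.1. Ratios, sequences and figures were computed with Python 3.11.15, pandas 2.3.3, scipy 1.17.1 and matplotlib 3.10.9.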

Additional observations from a re-analysis of the deposited data

Results flagged for a closer look

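The complement genes of Pde6b rd10 differed from those of the other models in direct tests. Of the 8 tested genes, 7 differed between Pde6b rd10 and Pde6b rd1 and 7 between Pde6b rd10 and Prph rd2, the same genes in both contrasts (C1qa, C1qb, C1qc, C3, C4b, Serping1 and C3ar1). Of all genes tested, 17.6% were higher and 11.2% lower in Pde6b rd10 than in Pde6b rd1. Against Prph rd2, these shares were 13.5% and 6.16%. Between Pde6b rd1 and Prph rd2, 2 differed, C4b and C3ar1, in opposite directions. There 8.66% of all genes tested were higher and 8.21% lower in Pde6b rd1, so that a count of 2 of 8 is not far from the background. Groups of 3 samples were not searched for samples standing apart.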

How the results depend on the processing

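No called value changed sign under the alternatives. Of the log2 fold changes of single genes, 11 of 90 changed sign under at least 1 alternative (30 values), none of them called in either fit, among them C1qc (0.19, lowest -0.09) and C2 (-0.04, highest 0.19) in Pde6b rd1 and C3 in Prph rd2 (0.04, lowest -0.10). Of the 129 values of the 9 counts of complement genes, 120 stayed within 1.5 times, and the 9 genes kept counts of 7, 0 and 1 in Pde6b rd10, Pde6b rd1 and Prph rd2 against C3H under all 15 alternatives, the 1-sample C3H arm included. With limma on log2(FPKM + 1), which compresses low values, 11 instead of 17 other complement genes were called in Pde6b rd10, 2 instead of 6 in Pde6b rd1, and 1 instead of 2 of the 9 genes between Pde6b rd1 and Prph rd2. In Prph rd2, where 0 other complement genes were called, DESeq2 called 1, the fit without a filter 3 and the fit of all 12 samples 3, and leaving out 1 sample gave 0 to 2 (1 without Prph rd2 sample 2 or 3, 2 without C3H sample 1). Against the C3H sample of the same day alone, where that lone sample is assumed to vary like the 3 model samples, C1rl in Pde6b rd10 was not called (log2 fold change 0.76), and Itgax in Pde6b rd1 had 2.38 instead of 1.54. Leaving out 1 sample brought calls in Pde6b rd1 for Cd59a (-0.61 without Pde6b rd1 sample 3) and Itgb2 (-0.74 without C3H sample 2), and for C1qc over Prph rd2 (0.68 without Pde6b rd1 sample 3, 0.63 without Prph rd2 sample 1). Over all genes, limma on log2(FPKM + 1) gave 2035 instead of 4479 calls in Pde6b rd10, 1097 instead of 2749 in Pde6b rd1 and 166 instead of 850 in Prph rd2, where the fit without a filter gave 1300, the adjusted p 384 and leaving out Prph rd2 sample 2 1435. The corresponding numbers between models were 2929 instead of 5644, 1791 instead of 3862 and 1115 instead of 3308. The cause was not tested. Samples with the same replicate number did not deviate together (r between -0.102 and 0.128), and with the replicate number as a block the counts of the 9 genes stayed at 7, 0 and 1, and those of the other complement genes at 17, 6 and 0. C2, C4b in C3H and Pde6b rd1, and Cfb are limited by depth.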
